A study of Mus musculus with 6 samples.

Results

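The ER membrane protein complex (EMC) was described here through the transcripts of its subunits in spermatocytes labelled Srp68 SKO and in wild type ones. The 10 genes were Emc1, Emc2, Emc3, Emc4, Emc6, Emc7, Emc8, Emc9, Emc10 and Mmgt1, which encodes the subunit also called EMC5. They were found by symbol in GENCODE vM21, and all 10 had a row among the 49584 genes of the deposited table. All 10 also passed the filter on low counts that left 13474 genes for testing. Libraries were made by Smart-seq2, which copies and amplifies full-length poly(A) cDNA, from mouse spermatocytes of the leptotene and zygotene stages, taken at postnatal day 12. The comparison set 3 libraries labelled Srp68 SKO against 3 labelled wild type, which the series text calls control. The table's columns write CKO where the labels write SKO. The sources used here do not give how Srp68 was deleted, the strain or the number of animals behind a library, so p-values measure the spread between these libraries, which may be technical.

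The EMC is a membrane insertase of the endoplasmic reticulum (ER). It places transmembrane segments into the lipid bilayer, among them the tail anchors of some proteins and the first transmembrane segment of many multipass proteins such as G protein-coupled receptors. Tail-anchored clients reach it after translation, without the signal recognition particle (SRP), whereas many multipass proteins are brought to the ER by SRP, of which SRP68 is a subunit. EMC3 and EMC6 form the insertase core in the membrane, with EMC3 related to bacterial YidC, EMC2 scaffolds the cytosolic side, and EMC1, EMC7 and EMC10 have large lumenal domains. EMC8 and EMC9 are paralogs that bind EMC2 at the same place and exclude each other. By background knowledge, EMC1, EMC2, EMC3, EMC5 and EMC6 are core subunits whose loss destabilises the complex, and the other members are peripheral.

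The promoters of Emc10, Emc7 and Emc6 are shown because these are the called members with an entry in the RefSeq promoter table (GRCm38.p6), in which 7 of the 10 members matched by symbol. Each run holds the 250 bases before the start site, 5′ to 3′ on the gene's strand, and capitals mark motif matches. The Emc10 window is chr7:44496514-44496763 on the minus strand, before the start nearest to the GENCODE 5′ end, 1 of 2 starts listed. The Emc7 window is chr2:112454775-112455024 on the plus strand, and the Emc6 window chr11:73177043-73177292 on the minus strand.
Emc10: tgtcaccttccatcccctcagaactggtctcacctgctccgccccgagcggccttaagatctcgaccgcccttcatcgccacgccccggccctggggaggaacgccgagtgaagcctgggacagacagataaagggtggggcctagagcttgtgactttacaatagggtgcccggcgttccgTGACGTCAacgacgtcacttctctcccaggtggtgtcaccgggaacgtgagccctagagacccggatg
Emc7: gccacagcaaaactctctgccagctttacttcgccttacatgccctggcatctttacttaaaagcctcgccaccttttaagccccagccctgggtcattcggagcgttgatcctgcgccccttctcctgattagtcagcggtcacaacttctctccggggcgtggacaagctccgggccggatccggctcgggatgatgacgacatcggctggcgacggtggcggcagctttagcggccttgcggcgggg
Emc6: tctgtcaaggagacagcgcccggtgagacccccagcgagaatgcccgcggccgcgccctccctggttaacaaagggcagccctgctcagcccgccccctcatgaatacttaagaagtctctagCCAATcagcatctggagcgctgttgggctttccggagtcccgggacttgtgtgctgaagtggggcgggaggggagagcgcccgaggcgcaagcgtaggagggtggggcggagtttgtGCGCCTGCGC
Searched on both strands were the cAMP response element TGACGTCA, the ETS motif CCGGAAG, the CCAAT box, the NRF1 motif (GCGCA and GCGC with 1 free base between them), the ER stress element (a CCAAT box and CCACG with 9 free bases between them, so that it overlaps the CCAAT box) and the amino acid response motif TGATGNAAT. Emc10 held TGACGTCA, starting 68 bases before the start site, as did 1.55% of all 32851 promoter windows of this length. Emc6 held a CCAAT box at 127 bases (33.8% of windows) and, read on the opposite strand, an NRF1 motif at 10 bases (3.74% of windows). Emc9 was the other member with a CCAAT box, and Emc7 held none of these motifs. The ETS motif, in 6.91% of all windows, the ER stress element, in 0.113%, and the amino acid response motif, in 0.816%, were not found in the 7 windows.

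The targeted gene was lower in every library labelled SKO. Srp68 stood at 21.7, 29.3 and 22.6 CPM (counts scaled to library size with TMM factors) in wild type replicates 1 to 3 and at 12.1, 6.52 and 6.93 in SKO replicates 1 to 3. SKO libraries thus kept 34.7% of the wild type mean, and reads of the targeted part were not examined apart. Library totals were 14.3 to 15.4 M counts in wild type and 11.9 to 12.7 M in SKO. The TMM factors were 1.07 to 1.13 and 0.879 to 0.957. Depth and scaling thus differed with genotype, and their part in the results was not tested. In all libraries 3 counts corresponded to 0.195 to 0.253 CPM, a limit that covers counting error only. The labelled cell type was checked against its markers. Calls of markers come from the test given in the next paragraph, which called 14.1% of all tested genes higher and 14.4% lower. All 12 leptotene and zygotene markers passed the filter, with summed levels of 15200 to 19000 CPM in wild type and 25100 to 33200 CPM in SKO (8 called higher, 2 lower). Of 12 pachytene and spermatid markers, 7 were tested, 5 were lower and 1 higher, with summed levels of 377 to 485 CPM in wild type and 283 to 353 CPM in SKO. Spermatogonial markers summed to 350 to 404 and 232 to 310 CPM (of 8 tested, 1 lower), and Sertoli markers to 71.1 to 85.8 and 29.0 to 106 CPM (0 of 6 tested called). Leydig, myoid, macrophage and endothelial lists were each under 40 CPM in every library, with Cyp17a1, Cyp11a1, Des and Emcn at 0 counts in all 6 and Acta2 and Lyz2 called higher in SKO, and erythroid markers ran from 2.77 to 148 CPM. The germ cell stage markers thus moved with genotype beside every result that follows, and their part in it was not tested. In such bulk libraries, fewer cells of a type and less RNA per cell cannot be told apart.

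EMC transcripts moved in both directions in SKO spermatocytes. Of the 10 members, 3 rose (Emc2, Emc6 and Mmgt1), 2 fell (Emc7 and Emc10) and 5 did not pass (edgeR's quasi-likelihood test, two-sided, Benjamini-Hochberg adjusted p under 0.05 over all tested genes). Among all tested genes 14.1% were higher and 14.4% lower, 28.5% in either direction. The median log2 fold change of the members was 0.13, with a range from −2.20 to 0.90, beside −0.03 for all tested genes. Scaling by library totals and not TMM moved the median of all tested genes to −0.29 and that of the members to −0.13. By role, 3 of 5 core subunits were higher and 0 lower, and 0 of 5 peripheral subunits were higher and 2 lower. This split was not tested and did not hold under each alternative, since with GC content and exon length corrected for, the peripheral Emc8 was called higher (0.61; edgeR adjusted p = 0.000609) and the core Mmgt1 was not called (0.28; 0.357), and the core Emc3 was called lower under 7 of 17 alternatives. Groups did not overlap in CPM for 6 members, 3 of them higher and 3 lower in SKO, where 21.6% of all tested genes had groups apart and higher, 22.2% apart and lower, and 43.8% either.

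**Figure D1:**
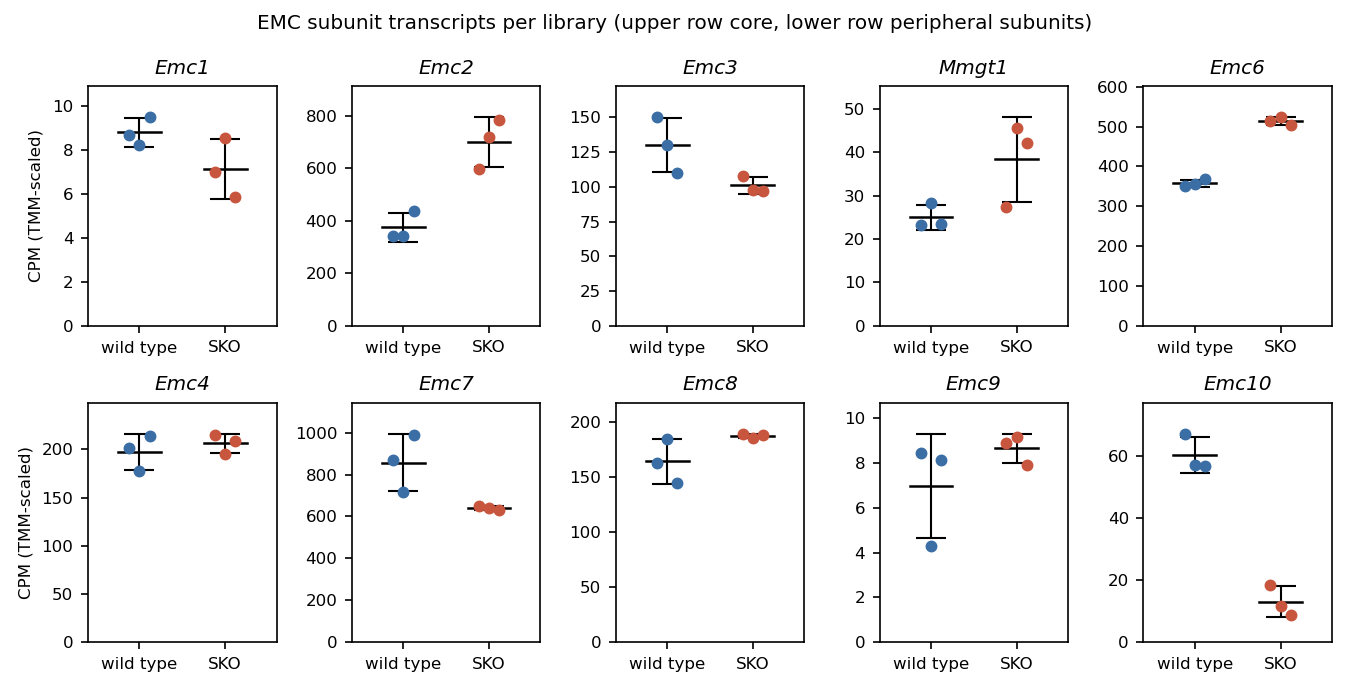
TMM-scaled CPM (vertical axes, each from 0) of the 10 EMC genes in 3 wild type (blue) and 3 SKO (red) libraries. Points are libraries, left to right replicates 1 to 3, and horizontal lines and bars the mean and SD; Emc10 lies at 56.7 to 67.1 CPM in wild type and 8.85 to 18.6 CPM in SKO.

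Emc10 had the largest change of the members. This lumenal subunit (ENSMUSG00000008140, GRCm38 chromosome 7, 44489937 to 44496529, minus strand), whose promoter with the cAMP response element is printed above, drew 1041, 987 and 866 reads from the wild type libraries against 226, 126 and 92 from the SKO libraries, in replicate order. Scaled to CPM, the wild type libraries stood at 67.1, 57.2 and 56.7 (60.3 ± 5.86, SD, n = 3) and SKO libraries at 18.6, 11.7 and 8.85 (13.1 ± 5.01, SD, n = 3). The lowest wild type library was more than 3-fold above the highest SKO library, so the groups were far apart. Emc10 fell by 2.20 on the log2 scale (SE 0.24; edgeR adjusted p = 1.94e-05), to 21.6% of the wild type mean. That change was lower than those of all but 1.70% of the tested genes. Its transcripts have a GC content of 60.9%, the highest of the members. With the dependence on GC content and exon length taken out of each library (the sequence-corrected fit), the log2 fold change was −1.40 (SE 0.20; edgeR adjusted p = 0.000141), a smaller fall that still passed.

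Emc7, the other member that fell, encodes a subunit with a lumenal domain and was the member with most reads. Emc7 (ENSMUSG00000055943, chromosome 2, 112454997 to 112472162, plus strand) stood at 867, 715 and 988 CPM in wild type (857 ± 137, SD, n = 3) and at 650, 639 and 630 CPM in SKO (640 ± 9.86, SD, n = 3). Every SKO library was under every wild type library, and the SKO libraries lay within a narrow range. The log2 fold change was −0.42 (SE 0.11; edgeR adjusted p = 0.0116). It was −0.68 with library totals and −0.61 in the sequence-corrected fit, and passed in both.

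Emc2, which encodes the cytosolic scaffold that holds EMC8 or EMC9, had the largest rise. Emc2 (ENSMUSG00000022337, chromosome 15, 43477229 to 43527763, plus strand) was at 343, 343 and 438 CPM in wild type (375 ± 54.6, SD, n = 3) and at 598, 718 and 784 CPM in SKO (700 ± 94.2, SD, n = 3). All SKO libraries were above all wild type libraries, at 1.87 times the wild type mean. It rose by 0.90 on the log2 scale (SE 0.13; edgeR adjusted p = 0.000125). Its transcripts are the poorest in GC among the members, at 39.5%, and the sequence-corrected value was 0.51 (SE 0.09; edgeR adjusted p = 0.00102). Emc2 and Emc10, the members with the largest rise and fall, were also set against each other per kilobase of exon. Emc2 was 3.96, 4.65 and 5.98 times Emc10 in the wild type libraries and 24.9, 47.5 and 68.5 times in the SKO libraries. The pair was taken for its changes and holds the lowest and highest GC content of the members. These ratios were not corrected for GC content, and both changes were smaller in the sequence-corrected fit.

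The insertase core gave a rise for Emc6 and no call for Emc3. Emc6 (ENSMUSG00000047260, chromosome 11, 73175519 to 73177037, minus strand), a small membrane subunit that pairs with EMC3, was at 350, 355 and 368 CPM in wild type (358 ± 9.04, SD, n = 3) and at 514, 523 and 505 CPM in SKO (514 ± 9.17, SD, n = 3). These groups were tight and did not overlap. The log2 fold change was 0.52 (SE 0.09; edgeR adjusted p = 0.000692), and 0.26 with library totals (edgeR adjusted p = 0.0322). Emc3 (ENSMUSG00000030286, chromosome 6, 113514874 to 113531652, minus strand), the YidC relative, was at 150, 130 and 110 CPM in wild type (130 ± 19.6, SD, n = 3) and at 108, 97.5 and 97.1 CPM in SKO (101 ± 6.11, SD, n = 3). The groups did not overlap, though wild type replicate 3 and SKO replicate 1 lay close together. Its log2 fold change of −0.37 (SE 0.13) missed the threshold (edgeR adjusted p = 0.053). Emc3 was called lower under 7 of 17 alternatives, among them DESeq2 (adjusted p = 0.041) and library totals (edgeR adjusted p = 0.00416), and stood at −0.23 in the sequence-corrected fit (edgeR adjusted p = 0.191).

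Mmgt1, the X-linked gene for EMC5, passed narrowly. Mmgt1 (ENSMUSG00000061273, chromosome X, 56585512 to 56598069, minus strand) was at 23.3, 28.3 and 23.4 CPM in wild type (25 ± 2.86, SD, n = 3) and at 27.3, 45.6 and 42.1 CPM in SKO (38.3 ± 9.69, SD, n = 3). SKO replicate 1 lay within the wild type range, so the groups overlapped. The log2 fold change of 0.62 (SE 0.21; edgeR adjusted p = 0.0425) lost its call without any 1 of wild type replicates 1 (edgeR adjusted p = 0.122), 2 (0.0509) and 3 (0.0959) and SKO replicates 2 (0.211) and 3 (0.151), with library totals (0.249), with limma-voom (0.0572) and in the sequence-corrected fit (0.28; 0.357). Transcripts of Mmgt1 have a GC content of 40.6%. Among the 614 tested X-linked genes, 169 (27.5%) were higher and 23 (3.75%) lower, beside 14.1% and 14.4% of all tested genes, and their median was 0.39 on the log2 scale. Mmgt2, a paralog of Mmgt1 that was singled out with its values already known, stood at 3.29, 1.62 and 2.03 CPM in wild type and at 0.658, 0.558 and 0.577 CPM in SKO (log2 fold change −1.93, SE 0.74; edgeR adjusted p = 0.0654).

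Neither of the exchangeable paralogs Emc8 and Emc9 was called, and their ratio did not separate the genotypes. Emc8 (ENSMUSG00000031819, chromosome 8, 120653914 to 120668573, minus strand) was at 163, 184 and 144 CPM in wild type (164 ± 20.2, SD, n = 3) and at 189, 185 and 188 CPM in SKO (187 ± 2.04, SD, n = 3; log2 fold change 0.19, SE 0.11; edgeR adjusted p = 0.236). Wild type replicate 2 lay just under the lowest SKO library. In the sequence-corrected fit Emc8 was called higher (0.61, SE 0.10; edgeR adjusted p = 0.000609), and with library totals its sign turned (−0.07; edgeR adjusted p = 0.701). Emc9 (ENSMUSG00000022217, chromosome 14, 55581516 to 55585302, minus strand) was at 8.44, 4.29 and 8.12 CPM in wild type (6.95 ± 2.31, SD, n = 3) and at 8.89, 9.12 and 7.89 CPM in SKO (8.63 ± 0.653, SD, n = 3; log2 fold change 0.31, SE 0.34; edgeR adjusted p = 0.532). Its groups overlapped. Within a library, which removes the scaling between libraries, Emc8 reads per kilobase of exon were 7.51, 16.7 and 6.92 times those of Emc9 in wild type and 8.29, 7.91 and 9.26 times in SKO. Emc9 thus made up 5.64 to 12.6% of the pair in wild type and 9.74 to 11.2% in SKO. The mean log2 ratio was 3.26 ± 0.704 in wild type and 3.08 ± 0.117 in SKO (SD, n = 3; two-sided exact permutation p = 1, where 3 against 3 cannot give less than 0.1). Without wild type replicate 2 the SKO minus wild type difference of the log2 ratio turned from −0.17 to 0.23 (exact permutation p = 0.2).

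Emc1 and Emc4 showed no difference beyond their spread. Emc1 (ENSMUSG00000078517, chromosome 4, 139352587 to 139378730, plus strand), the largest subunit with a lumenal propeller domain, was at 8.70, 8.23 and 9.50 CPM in wild type (8.81 ± 0.642, SD, n = 3) and at 7, 8.56 and 5.87 CPM in SKO (7.14 ± 1.35, SD, n = 3; log2 fold change −0.30, SE 0.30; edgeR adjusted p = 0.504). Emc4 (ENSMUSG00000027131, chromosome 2, 112363011 to 112368027, minus strand), a peripheral membrane subunit, was at 201, 177 and 214 CPM in wild type (197 ± 18.9, SD, n = 3) and at 215, 195 and 209 CPM in SKO (206 ± 9.96, SD, n = 3; log2 fold change 0.06, SE 0.11; edgeR adjusted p = 0.712). Both pairs of groups overlapped. Emc4 turned to −0.19 with library totals and to −0.01 without wild type replicate 2, neither of them called.

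**Figure D2:**
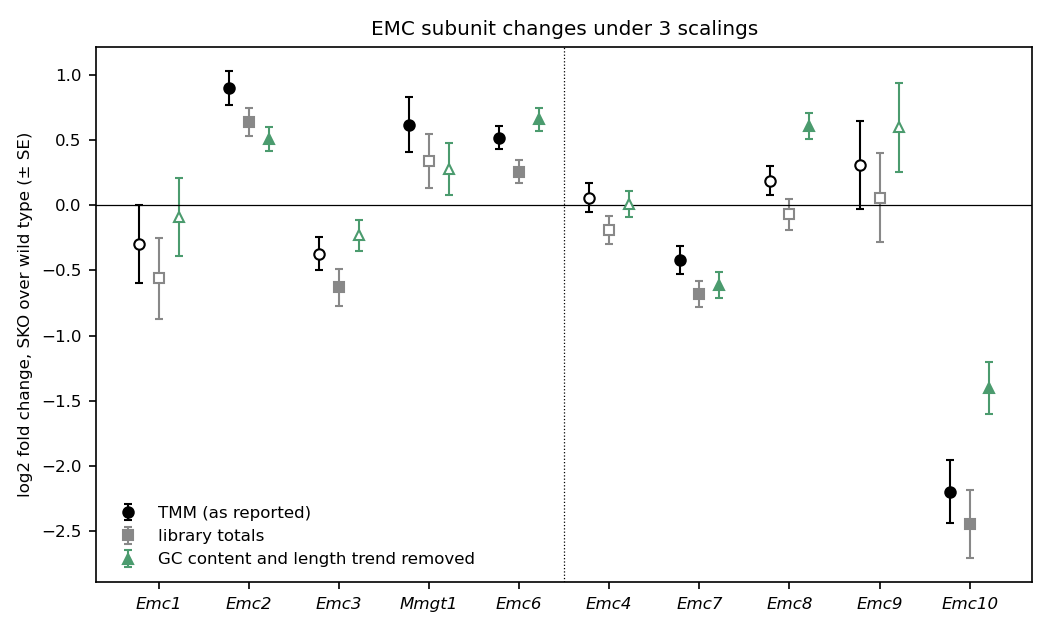
Log2 fold change, SKO over wild type, with its SE for each EMC gene under TMM scaling (black circles), library totals (grey squares) and removal of the GC content and length trend (green triangles); filled symbols passed an adjusted p under 0.05, and core subunits are left of the dotted line. Emc10 is lowest under each, at −2.20, −2.45 and −1.40.

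Some members share exon sequence with other genes. Reads from a part shared with an opposite gene cannot be told apart without strand, and those shared on the same strand not even with it. Of Emc1 exon length, 29.3% lies opposite 2700016F22Rik, a long noncoding RNA gene at 0 to 1.07 CPM in the 6 libraries, and 1.63% is shared with Ubr4 on the same strand. Emc8 shares 2.45% with the opposite Cox4i1, a cytochrome c oxidase subunit gene at 1120 ± 60.0 CPM in wild type and 1640 ± 55.3 CPM in SKO (SD, n = 3, log2 fold change 0.55, edgeR adjusted p = 0.000303). It shares 5.13% with Gm27021 on the same strand. Gm27021 had 0 counts, but other genes overlap 100% of its exon length, so this need not mean that it was silent. How many Emc8 reads fall in the part shared with Cox4i1 was not tested. The overlaps of Emc7, Emc9 and Mmgt1 covered 1.96% or less of their exon length, and Emc2, Emc3, Emc6 and Emc10 had none.

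Levels per kilobase of exon (RPKM) spread widely across the subunits of the complex. In wild type libraries Emc6 was highest at 253 ± 6.39 RPKM, followed by Emc4 (188 ± 17.9), Emc7 (147 ± 23.5), Emc2 (99.5 ± 14.5), Emc3 (38.6 ± 5.84), Emc8 (26 ± 3.21), Emc10 (20.7 ± 2.01), Mmgt1 (5.90 ± 0.675), Emc9 (2.82 ± 0.938) and Emc1 (1.32 ± 0.0961; SD, n = 3 for each). The libraries of Emc4 and Emc7 overlapped, at 168 to 203 and 123 to 170 RPKM, as did those of Emc8 and Emc10, at 22.9 to 29.3 and 19.4 to 23.0 RPKM, and the other neighbours in this order did not. Among tested genes Emc6 stood at percentile 97.9 of wild type RPKM and Emc1 at percentile 31.5. In SKO libraries Emc6 stayed first (363 ± 6.48 RPKM) and Emc1 last (1.07 ± 0.202). Emc2 reached 186 ± 25 RPKM, overlapped Emc4 (196 ± 9.46) and lay above Emc7 (110 ± 1.69), while Emc10, at 4.48 ± 1.72 RPKM, lay under Mmgt1 (9.05 ± 2.29) and overlapped Emc9 (3.5 ± 0.265; SD, n = 3 for each). Its percentile among tested genes went from 81.5 in wild type to 57.5 in SKO. These values divide by the exon length of all annotated isoforms, so a gene expressed as a short isoform reads low.

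The summed EMC level could hardly show the fall of Emc10, which took 2.33 to 2.94% of it in wild type. Over the 10 members it was 782, 730 and 835 RPKM in wild type (782 ± 52.1, SD, n = 3) and 918, 934 and 947 RPKM in SKO (933 ± 14.8, SD, n = 3; exact permutation p = 0.1, the smallest possible). Every SKO library was above every wild type library, a log2 ratio of 0.25 that became −0.01 with library totals (exact permutation p = 0.9) and 0.13 without the 2 members of highest level, Emc6 and Emc4 (exact permutation p = 0.2). The share of the sum taken by each subunit does not depend on scaling. Emc6 took 31.2 to 34.4% in wild type and 37.7 to 39.6% in SKO, and Emc2 11.6 to 13.9% and 17.3 to 22%. Emc7 went from 16.8 to 20.3% to 11.4 to 12.2%, Emc10 from 2.33 to 2.94% to 0.320 to 0.695%, and Emc3 from 3.94 to 5.69% to 3.05 to 3.5%. Emc4, at 23 to 24.5% and 19.9 to 22.2%, and Emc1, at 0.166 to 0.170% and 0.0927 to 0.137%, also took a smaller share in each SKO library than in any wild type library. The 5 core subunits together held 49.8 to 53.2% of the sum in wild type and 61.2 to 64.4% in SKO. Among them only Emc6 and Emc2 took a larger share in each SKO library than in any wild type library. Emc3 and Emc1 took a smaller share, and the shares of Mmgt1 overlapped. These sums and shares were not corrected for GC content. Core subunits summed to 390, 389 and 416 RPKM in wild type and 562, 602 and 605 RPKM in SKO, and peripheral subunits to 392, 341 and 419 RPKM and 356, 332 and 343 RPKM. The core sums were apart and the peripheral sums overlapped.

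**Figure D3:**
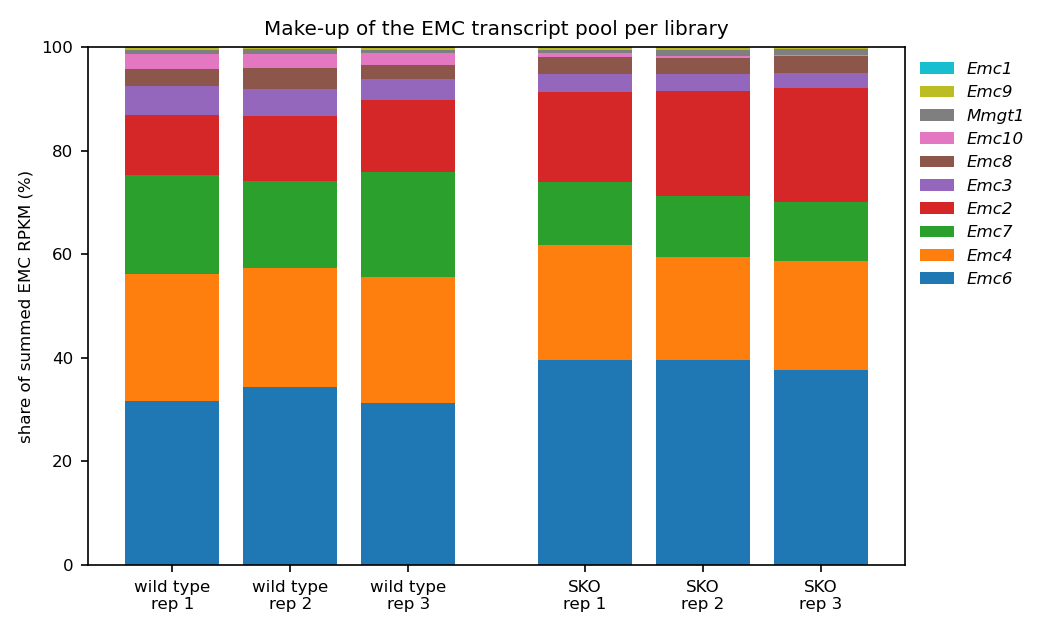
Share of the summed EMC RPKM (vertical axis, percent) taken by each subunit in 3 wild type and 3 SKO libraries. In SKO, Emc6 (bottom, 37.7 to 39.6%) and Emc2 (17.3 to 22%) take more and Emc4 (19.9 to 22.2%), Emc7 (11.4 to 12.2%) and Emc10 (0.320 to 0.695%) less than in any wild type library.

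Beside the EMC, other routes of membrane insertion changed in both directions, described here by counts beside the 28.5% of all tested genes called. The multipass translocon, which gathers behind the Sec61 channel to fold multipass proteins, had 2 of 7 members higher, 2 lower and 3 not passed (median log2 fold change 0.03). Tmco1, its insertase subunit and like Emc3 a member of the Oxa1 superfamily, rose from 394 ± 68.0 to 557 ± 62.0 CPM (SD, n = 3; log2 fold change 0.50; edgeR adjusted p = 0.010), with no call without SKO replicate 2 (0.43; 0.0662) or with library totals (0.24; 0.129). Nomo1, of the same assembly, fell from 25.2 ± 1.82 to 12.1 ± 1.64 CPM (SD, n = 3; log2 fold change −1.05; edgeR adjusted p = 0.0025) and −0.66 was its smallest fall over the alternatives. Ccdc47, a chaperone for transmembrane segments (36.2 ± 1.14 and 49.0 ± 2.54 CPM, SD, n = 3; edgeR adjusted p = 0.0432), and Ncln, the partner of Nomo1 (7.26 ± 3.00 and 2.69 ± 1.31 CPM; 0.037), passed but lost their calls under 11 of 17 and 8 of 16 alternatives. Without each single library of the 6 in turn Ccdc47 had adjusted p-values of 0.0706 to 0.145, and Ncln did not pass when wild type replicate 2 (0.0894) or 3 (0.143) or SKO replicate 2 (0.109) or 3 (0.125) was left out. In the sequence-corrected fit they stood at 0.29 (edgeR adjusted p = 0.171) and −0.72 (0.282).

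Most of the Sec61 list, the channel that receives ribosomes from SRP and its partners, was higher, with 5 of 6 members higher and 1 lower (median log2 fold change 0.84). Sec61b rose from 314 ± 17.5 to 609 ± 48.7 CPM, Sec61g from 366 ± 30.9 to 684 ± 65.6 CPM and Sec62 from 350 ± 55.0 to 609 ± 55.2 CPM (SD, n = 3; edgeR adjusted p = 1.47e-05, 3.6e-05 and 0.000241). The lower member was Sec61a2, which fell from 186 ± 30.8 to 139 ± 8.89 CPM (SD, n = 3, edgeR adjusted p = 0.0248). Sec61a1 rose from 25.5 ± 5.39 to 38.7 ± 5.83 CPM (SD, n = 3, edgeR adjusted p = 0.0395) but stayed under Sec61a2 in every library. In the GET pathway, which delivers tail-anchored proteins with more hydrophobic anchors than those taken by the EMC, 5 of 7 members were lower, 1 higher and 1 not passed (median −0.91). Wrb, the GET receptor subunit related to Emc3, did not pass, at 38.0, 38.0 and 32.7 CPM in wild type and 42.6, 29.0 and 41.0 CPM in SKO (log2 fold change 0.05, SE 0.19; edgeR adjusted p = 0.875), and its sign turned under 4 of 17 alternatives. Asna1, the targeting ATPase, fell from 52.7 ± 12.5 to 16.0 ± 1.87 CPM and Get4 from 107 ± 28.1 to 45.5 ± 14.0 CPM (SD, n = 3; edgeR adjusted p = 4.91e-05 and 0.000996), and Get4 stood at −0.54 in place of −1.23 in the sequence-corrected fit. Bag6, a chaperone of the same route, fell from 26.2 ± 2.69 to 13.9 ± 2.90 CPM (SD, n = 3; edgeR adjusted p = 0.008) and was not called there (−0.36; 0.275).

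Among 5 known clients of the EMC, 3 passed the filter, of which 2 fell. Tmem97, a multipass protein also known as the sigma-2 receptor, was at 271, 238 and 328 CPM in wild type (279 ± 45.5, SD, n = 3) and at 117, 112 and 95.9 CPM in SKO (108 ± 10.9, SD, n = 3; log2 fold change −1.36, SE 0.13; edgeR adjusted p = 8.81e-06). Those groups were well apart. Fdft1, the tail-anchored squalene synthase, was at 117, 84.1 and 77.5 CPM in wild type and at 71.8, 59.6 and 40.9 CPM in SKO (log2 fold change −0.69, SE 0.20; edgeR adjusted p = 0.0194). It was not called without wild type replicate 1 (−0.49; 0.119), SKO replicate 2 (−0.72; 0.06) or SKO replicate 3 (−0.50; 0.0879), nor in the sequence-corrected fit (−0.35; 0.183). A stretch of Fdft1 overlaps Ctsb on the opposite strand. Soat1, which esterifies cholesterol, did not pass (14.2 ± 1.41 and 12.1 ± 4.11 CPM, SD, n = 3; edgeR adjusted p = 0.593), and Adrb1 had at most 2 counts in any library.

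**Figure D4:**
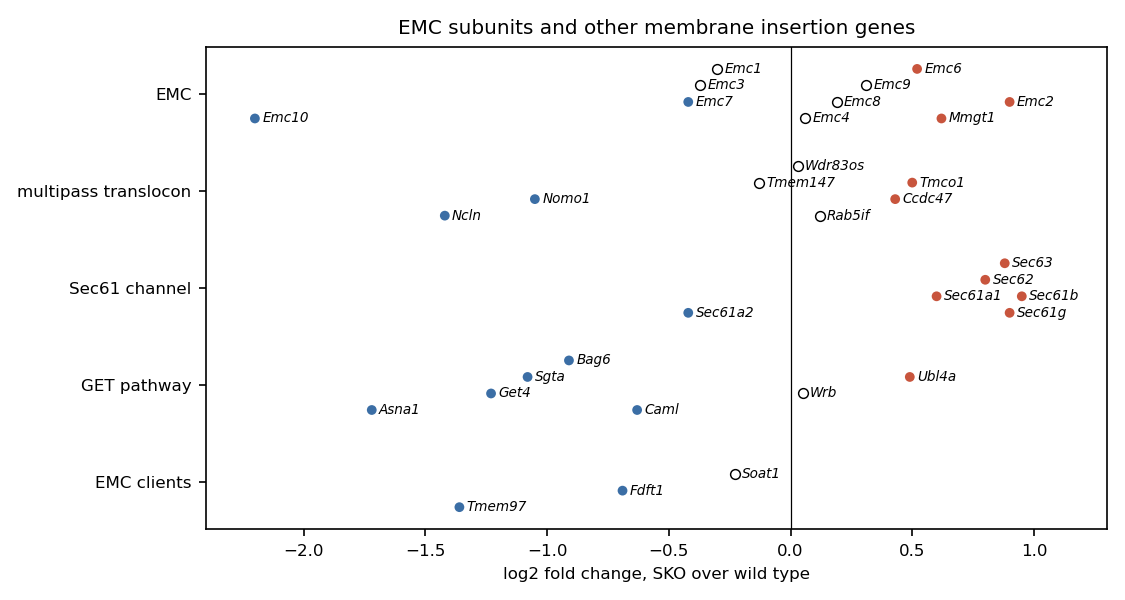
Log2 fold change, SKO over wild type (horizontal axis), of each tested gene in the EMC and the 4 related lists; filled points passed an adjusted p under 0.05 (red higher, blue lower) and open points did not. EMC genes lie on both sides of 0, while 5 of 6 Sec61 genes lie above it and 5 of 7 GET genes passed below it.

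GC content moved with the changes over all tested genes. The log2 fold change had a Pearson r of −0.31 with transcript GC content over 13452 tested genes. Over the 10 members r was −0.62, but these are genes and not independent replicates and share the same libraries. Emc10, with the highest GC content and the largest change, weighs heavily in that value, which was not computed without Emc10. Among the members, Emc2 (39.5%) and Mmgt1 (40.6%) had the lowest GC content and were higher, and Emc10 (60.9%) the highest and was lower. Emc7 (43.0%) and Emc6 (53.0%) moved against that order, and both had larger changes after the correction for GC content and length, −0.61 and 0.66 in place of −0.42 and 0.52. With it, 3 members were higher (Emc2, Emc6 and Emc8) and 2 lower (Emc7 and Emc10).

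**Figure D5:**
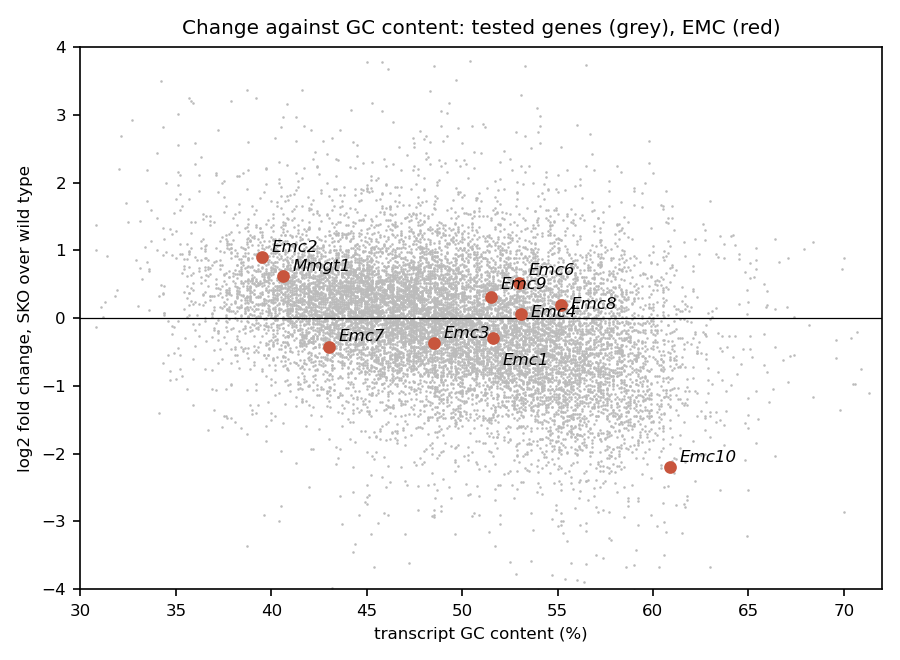
Log2 fold change, SKO over wild type (vertical axis), against transcript GC content in percent (horizontal axis) for tested genes (grey) and the 10 EMC genes (red), with 65 genes beyond the axes. Emc10 lies at 60.9% GC and −2.20, Emc2 at 39.5% and 0.90.

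The genes whose profiles over the 6 libraries lay closest to the members with the largest changes were found by the Euclidean distance of log2 CPM centred on each gene's mean. For Emc10 they were Rhog (distance 0.281), Edem2 (0.328) and P3h1 (0.344), with log2 fold changes of −2.39, −2.25 and −2.13. Edem2, an ER protein of glycoprotein degradation, was at 60.0 ± 7.74 CPM in wild type and 12.6 ± 6.32 CPM in SKO (SD, n = 3). For Emc2 they were Zfp672 (0.0716), Ss18l2 (0.0874) and Mob4 (0.0986), with log2 fold changes of 0.87, 0.85 and 0.92. These profiles rest on 6 libraries, so closeness mostly reflects a similar difference between genotypes.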

How the data were processed

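Per the submitters' processing notes, reads were checked with FastQC, trimmed with Trim Galore 0.6.4 and aligned with HISAT2 2.0.5 to mouse GRCm38 or mm10. The sources used here do not give the counting tool, strand setting or annotation. The authors deposited raw counts of reads per gene without normalization, and with no molecular identifiers in Smart-seq2, PCR duplicates remain among them. Symbols, positions, exon lengths and GC content came from GENCODE vM21, in which 259 of 49584 identifiers were absent.

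Counts were tested in R 4.3.3 with edgeR 4.0.16 (filterByExpr, TMM, quasi-likelihood test, genotype as the only term, adjusted p under 0.05). The code was tested on simulated counts with dispersions taken from these data. It called 36% of 100 genes with a true log2 fold change of size 1 and 64% of 100 with size 2. Among unchanged genes it made 10 false calls. A gene that did not pass may therefore still have changed. Standard errors derive from the same fit. RPKM divides TMM-scaled CPM by exon length. Ratios added 0.5 counts. Sums and ratios used two-sided exact permutation tests. All 10 members were named. Of related lists, up to 3 called genes by smallest p were named, plus Ccdc47, Tmco1 and Wrb. Sec61a1 and Sec61a2 were added with their values already known. The members and lists were chosen with earlier results of these data known. Alternatives were other scalings, low-count filters, DESeq2 1.42.0, limma-voom (limma 3.58.1), robust fitting, a replicate block, a stricter threshold, each library left out, and offsets from a loess curve (span 0.3) on GC content and log exon length. Some items are not reported here.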

Additional observations from a re-analysis of the deposited data

How the results depend on the processing

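Over 17 alternatives, 149 of the 170 values for the 10 members kept their direction and side of the threshold, 10 lost and 8 gained a call, and 3 turned sign. Emc2, Emc6 and Emc10 kept their calls in all 17, with log2 fold changes of 0.51 to 1.03, 0.26 to 0.66 and −2.55 to −1.40, and Emc7 (−0.68 to −0.30) in all but an adjusted p under 0.01. The reversed values were those of Emc4 (−0.19) and Emc8 (−0.07) with library totals and of Emc4 without 1 wild type library (leaving out each library gave −0.01 to 0.13). Wrb turned to −0.21 with library totals and ran from −0.05 to 0.20 with each library left out. With library totals the summed EMC level stood at −0.01, and 1010 genes were higher and 3168 lower in place of 1901 and 1937, so that 24.2% in place of 49.5% of calls were increases. The Emc8 to Emc9 difference ran from −0.41 to 0.23 with each library left out. At an adjusted p under 0.01, 1230 genes were higher and 1142 lower, and 1 EMC member was lower, while 1 multipass translocon gene and 1 EMC client were called in place of 4 and 2. With GC content and length corrected, 2 multipass translocon genes and 1 EMC client were called. With each library left out, 1 to 3 multipass translocon genes and 1 to 2 EMC clients were called. The labels do not state whether the replicate numbers pair the libraries, and 3 libraries per genotype are too few to decide it. Same-numbered deviations correlated at 0.02, −0.05 and 0.04, and 2 of 6 libraries correlated best with their own number. With a replicate block, 3 EMC members were higher and 3 lower (Emc3 joined, adjusted p = 0.0356), 2 multipass translocon genes were called, and the summed level stood at 0.26. Counting limits bear mostly on Emc1 and Emc9, with 61 to 145 and 74 to 131 counts per library.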
